A study of Homo sapiens with 12 samples.

Results

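Interferon-stimulated genes, the genes that cells switch on in answer to interferon, were followed in C4.2B cells, an established human line of castration-resistant prostate cancer. The list held 46 genes chosen by name for their known induction by interferon, a rule that uses no measured value, and all 46 were found among the 23228 genes counted. Earlier results of these data were, however, known when the list was chosen. Polyadenylated RNA was sequenced in 12 libraries, which formed 4 groups of 3 replicates (A, B and C). The DMSO group received vehicle, the GDC group 0.5 µM GDC-0941, which inhibits class I PI3K, the GSK group 5 µM GSK126, which inhibits EZH2, and the COMBO group both agents at these doses. The final treatment lasted 24 h in every group, in medium with charcoal-stripped serum. GSK and COMBO had also been exposed to GSK126 for 6 days beforehand, so these groups differ from the others in the time under drug as well as in the drug. All values come from 1 cell line, and no library was treated with interferon.

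Type I interferons bind a receptor that carries the kinases JAK1 and TYK2, which phosphorylate STAT proteins, among them STAT2. Together with IRF9 these form a complex that binds the interferon-stimulated response element (ISRE) of target promoters, whereas the STAT dimers formed after interferon gamma bind the GAS element. The induced genes encode sensors of viral RNA, enzymes and membrane proteins that block viruses, and regulators that limit the response. EZH2 is the catalytic subunit of a Polycomb complex that places a repressive methyl mark on histone H3, and PI3K is a lipid kinase that signals through AKT and mTOR.

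To show the promoter element that links most of these genes, the 200 bases before the start site are printed for 5 members that behaved differently in the libraries: IFI6 and SAMD9, which were higher under each agent, IFI44, which was higher in GSK and COMBO, IFIH1, which was lower in both, and IFITM1, which was higher in GDC alone. Sequences are from RefSeq on GRCh38.p14, run 5′ to 3′ on the strand of the gene, and capitals mark matches to the ISRE core. They lie at chr1:27672193-27672392 on the minus strand (IFI6), chr1:78649589-78649788 on the plus strand (IFI44), chr7:93117980-93118179 on the minus strand (SAMD9), chr2:162318685-162318884 on the minus strand (IFIH1) and chr11:313840-314039 on the plus strand (IFITM1).
IFI6: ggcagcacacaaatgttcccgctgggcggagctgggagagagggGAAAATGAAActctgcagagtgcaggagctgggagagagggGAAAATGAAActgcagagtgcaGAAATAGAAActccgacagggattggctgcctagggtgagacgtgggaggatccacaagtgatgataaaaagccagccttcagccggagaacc
IFI44: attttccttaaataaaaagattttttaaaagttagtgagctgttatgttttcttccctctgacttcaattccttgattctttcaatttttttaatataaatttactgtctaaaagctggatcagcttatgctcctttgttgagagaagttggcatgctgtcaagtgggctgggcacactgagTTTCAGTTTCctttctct
SAMD9: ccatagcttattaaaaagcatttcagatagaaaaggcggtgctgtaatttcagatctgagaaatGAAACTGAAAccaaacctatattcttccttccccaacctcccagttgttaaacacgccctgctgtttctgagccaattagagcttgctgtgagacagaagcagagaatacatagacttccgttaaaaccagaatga
IFIH1: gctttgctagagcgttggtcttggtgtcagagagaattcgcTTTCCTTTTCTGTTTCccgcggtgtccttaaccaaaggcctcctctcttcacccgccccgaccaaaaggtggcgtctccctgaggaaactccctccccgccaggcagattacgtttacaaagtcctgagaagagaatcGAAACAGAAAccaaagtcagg
IFITM1: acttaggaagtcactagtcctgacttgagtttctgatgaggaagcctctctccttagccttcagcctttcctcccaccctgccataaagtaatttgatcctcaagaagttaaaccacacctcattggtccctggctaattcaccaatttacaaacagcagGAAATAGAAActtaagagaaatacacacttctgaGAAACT
The last match in the IFITM1 stretch runs on past its end, at the start site.

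The ISRE core was searched as GAAANNGAAA on both strands, which reads TTTCNNTTTC on the other strand, in windows of 300 bases, 250 before and 50 after the start site. A window was at hand for 36 of the 46 members, not for IRF7, DHX58, IFIT2, OAS2, OASL, MX2, GBP2, USP18, IFITM2 and TRIM22. The core occurred in 25 of the 36 windows (69.4%), compared with 1255 of 35116 promoters in the whole table (3.57%). The GAS letters TTCNNNGAA, which read the same on both strands, occurred in 11 of the 36 (30.6%), compared with 7.66% of all promoters. Both were present in 8 members and neither in 8, and in 4 members a match of one overlapped a match of the other. The 44 ISRE matches began between 164 bases before and 23 bases after the start site. A match is a stretch of letters and was not tested for binding.

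**Figure D1:**
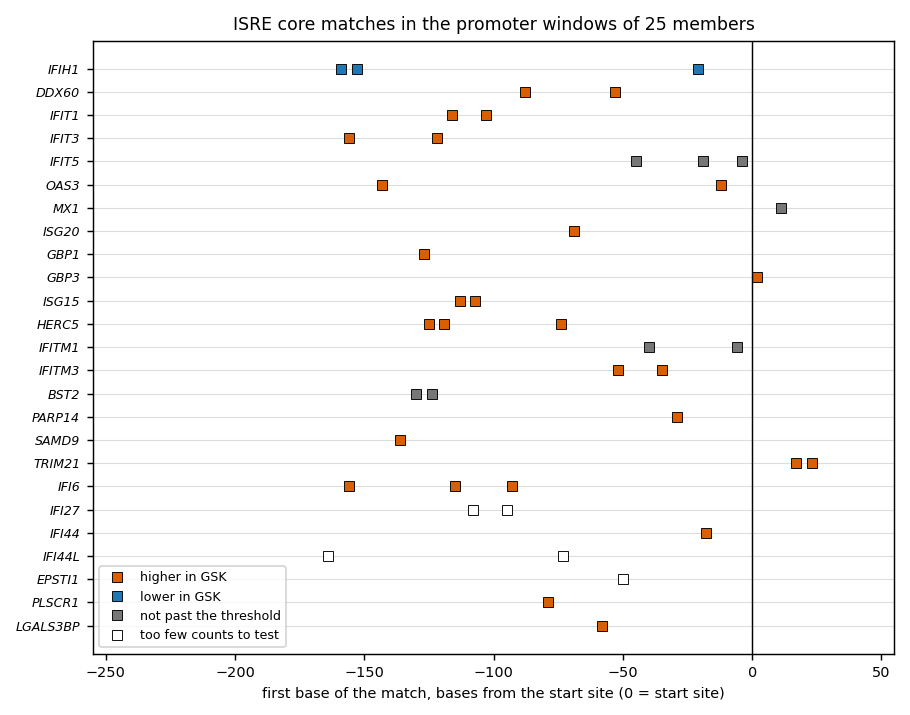
Position of each ISRE core match in the promoter windows of 25 members, with the distance of its first base from the start site in bases on the horizontal axis. Squares are coloured by the call in GSK against DMSO, and 40 of the 44 matches start within 200 bases before the start site.

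Libraries held 8785218 to 44437751 gene counts, with DMSO C the deepest. Levels are given in CPM, read counts scaled to library size. Where no read was counted, up to 3 remain possible, or 0.0675 to 0.341 CPM by library, a limit that covers counting error alone. Of all genes, 14189 had enough counts to test. The prostate epithelial markers KLK2, KLK3, TMPRSS2, FOLH1, KRT8, KRT18 and EPCAM were all expressed, and their summed level ran from 2466 to 2616 CPM with vehicle, from 3484 to 3604 with GDC-0941, from 3522 to 3865 with GSK126 and from 4420 to 4801 with both. Each of the 9 leukocyte markers was under 1 CPM in every group, with CD3D, CD3E and TYROBP at 0, although their sum ran from 0.210 to 0.332 CPM with vehicle, from 0.185 to 0.402 with GDC-0941, from 0.879 to 1.69 with GSK126 and from 1.09 to 1.38 with both. Of 7 fibroblast and endothelial markers, COL1A1 and VWF had enough counts to test, and the sum ran from 12.8 to 14.6 CPM with vehicle, from 15.6 to 20.6 with GDC-0941, from 30.4 to 42.9 with GSK126 and from 33.4 to 51.1 with both. The part of these markers in the results below was not tested. Genes took up 75.4% to 76.3% of the reads with vehicle, 73.8% to 74.3% with GDC-0941, 70.3% to 71.2% with GSK126 and 66.3% to 68.5% with both. In bulk RNA, fewer cells that express a gene and less RNA per cell cannot be told apart. The labels do not say whether replicates are separate cultures, so p-values measure the spread between these libraries.

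In vehicle the members were mostly low. Their median level was 2.64 CPM in DMSO, with 16 of the 46 under 1 CPM and 11 at 10 CPM or more, and the median was 2.88 CPM in GDC, 4.42 in GSK and 4.01 in COMBO. The number under 1 CPM was 16 in GDC, 7 in GSK and 8 in COMBO. Per kilobase of exon, the levels in DMSO were highest for IFITM3 (16.7 CPM per kb), ISG15 (16.0), IFITM2 (8.34) and TRIM21 (7.14), and SAMD9L was at 0.

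Most of the tested members changed with the EZH2 inhibitor, and most of those that changed rose. In GSK against DMSO, 32 of the 40 tested members rose and 3 fell (quasi-likelihood test of edgeR, p under 0.05 after Benjamini-Hochberg adjustment). Of all tested genes 75.8% changed, 40.0% upward and 35.8% downward. The median log2 fold change was 0.87 over the members and 0.058 over all tested genes. In COMBO 28 rose and 5 fell (82.5% of all genes changed, 43.3% upward and 39.2% downward), with a median of 0.92 beside 0.054. In GDC 14 rose and 1 fell (40.1% of all genes changed, 20.0% upward and 20.0% downward), with a median of 0.13 beside 0.016. These 3 comparisons share the DMSO libraries. The filter for enough counts looked at all groups at once. Members low in DMSO and GDC, among them GBP3, SAMD9, XAF1, RSAD2 and GBP1, entered the test through their levels in GSK or COMBO. So did OASL, IFIT2, IFIT3 and TRIM22. They are among the rises in GSK, so part of the counts and medians for GSK and COMBO, here and below, comes with the filter. The balance over all genes in GDC also moved with the processing, from 2840 higher and 2843 lower here to 3325 and 2354 with library totals, 2326 and 3493 with the size factors of DESeq2, 2132 and 3801 with no filter, and 1844 and 2756 without DMSO C. The count of members in GDC depended most on DMSO C, without which 10 of 40 rose, against 14 with all libraries.

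The median over the members lay above that of DMSO in each treated library. Relative to the DMSO mean, on a scale of log2(CPM + 0.5), the median over the 40 members was 0.83 to 0.85 in the GSK libraries, 0.76 to 0.86 in COMBO, 0.071 to 0.26 in GDC and -0.024 to 0.0085 in DMSO itself. All GSK libraries lay above all DMSO libraries for 33 members and below them for 3, which was also true of 40.2% and 36.3% of all tested genes. In COMBO these numbers were 28 and 5 (42.9% and 39.0% of genes), and in GDC 16 and 2 (25.9% and 24.8%).

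Scaling by library totals in place of TMM moved the median change over all genes upward, by 0.15 for GSK, 0.21 for COMBO and 0.17 for COMBO against GDC. Changes are given relative to TMM. The share of rises among the calls over all genes then went from 52.8% to 63.9% in GSK, from 52.5% to 63.2% in COMBO and from 49.9% to 62.8% in COMBO against GDC. Among the members, 33 rose and 2 fell in GSK with library totals, 30 and 4 did in COMBO, and 31 and 5 in COMBO against GDC.

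**Figure D2:**
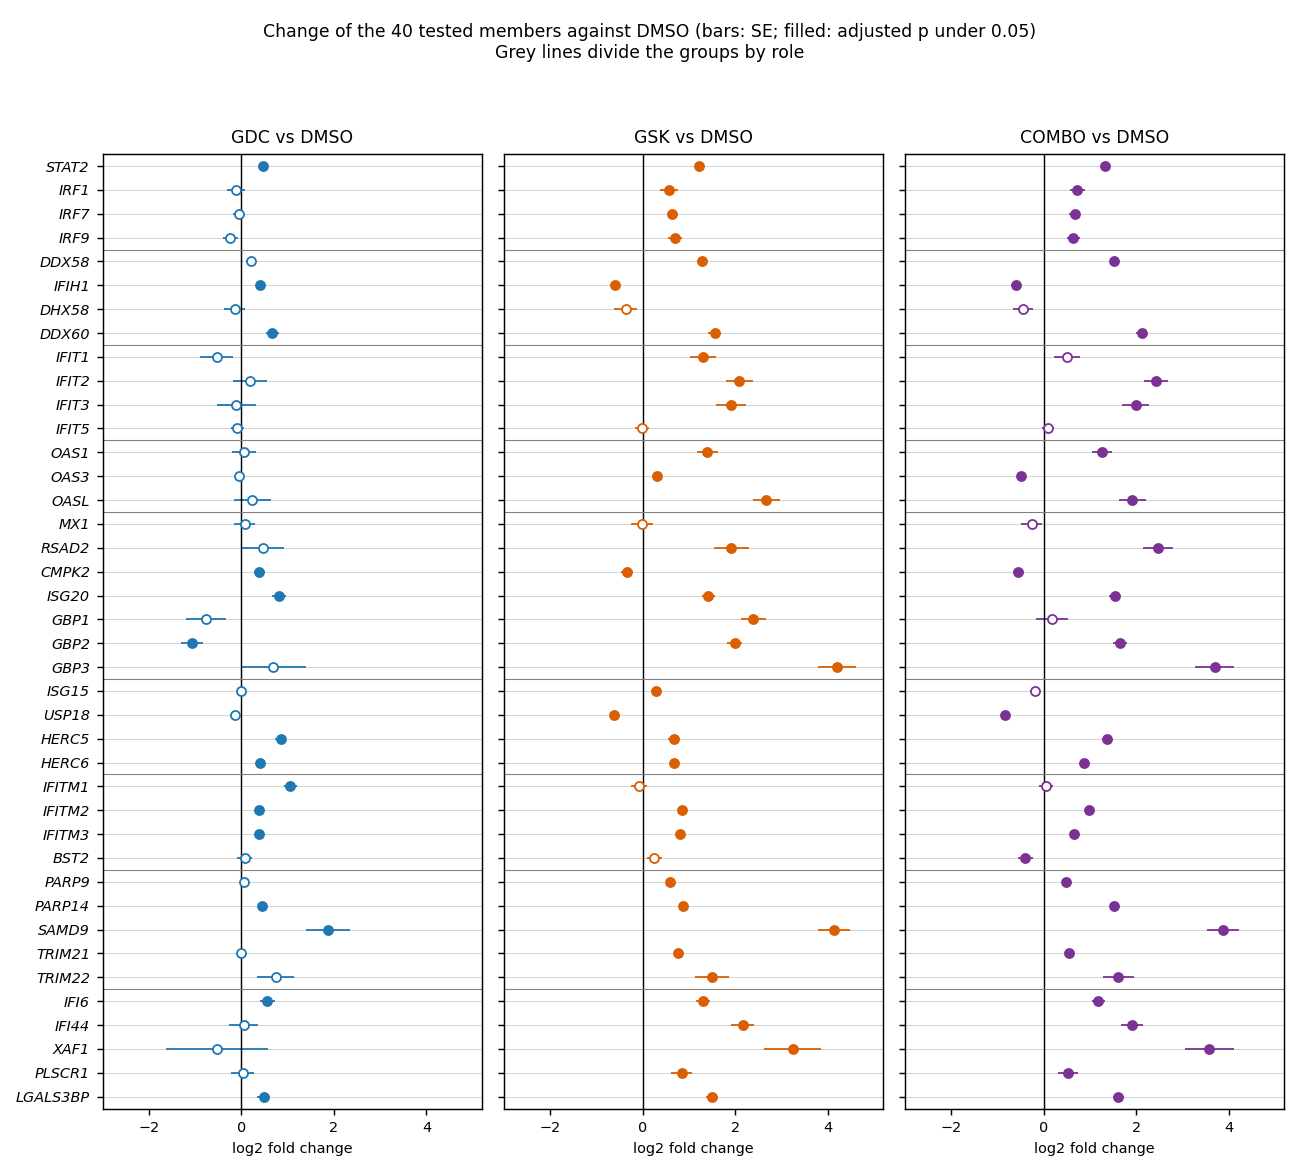
Log2 fold change of the 40 tested members in GDC, GSK and COMBO against DMSO, ordered by role, with the SE as a bar and a filled point where the adjusted p was under 0.05. Most points of the GSK and COMBO panels lie right of 0, with 32 and 28 rises, and most points of the GDC panel lie near 0, with 14 rises.

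The transcription factors of the pathway all rose in GSK and in COMBO. STAT2 (chromosome 12, 56341597 to 56360203 on hg38), the subunit of the ISRE-binding complex that activates transcription, was at 39.7, 37.0 and 37.1 CPM in the DMSO libraries, 53.8, 49.8 and 53.8 in the GDC libraries, 85.5, 89.7 and 85.9 in the GSK libraries and 98.7, 90.7 and 91.9 in the COMBO libraries. No library of one of these groups overlapped another. Its log2 fold change was 0.48 with GDC-0941 alone (SE 0.0571, adjusted p = 2.53e-06), 1.21 with GSK126 alone (SE 0.0559, adjusted p = 1.69e-13) and 1.31 with both agents (SE 0.0541, adjusted p = 8.65e-15). IRF9, which gives the same complex its DNA contact, was at 4.10, 4.03 and 4.33 CPM in the DMSO libraries, 4.33, 3.32 and 3.15 in the GDC libraries, 8.13, 6.00 and 6.52 in the GSK libraries and 7.08, 5.90 and 6.70 in the COMBO libraries. It rose by 0.70 with GSK126 alone (adjusted p = 0.000289) and 0.63 with both agents (adjusted p = 0.000294), while GDC overlapped DMSO (-0.24, adjusted p = 0.242).

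IRF7, a factor that amplifies interferon production, was at 8.52, 9.17 and 9.96 CPM in the DMSO libraries, 9.98, 8.99 and 8.31 in the GDC libraries, 13.3, 17.1 and 13.5 in the GSK libraries and 13.0, 16.3 and 15.3 in the COMBO libraries. GSK and COMBO lay above DMSO and GDC without overlap, with log2 fold changes against DMSO of 0.64 (adjusted p = 6.25e-05) and 0.66 (adjusted p = 1.65e-05). IRF1, which binds ISRE-like elements on its own, was at 2.31, 1.82 and 2.12 CPM in the DMSO libraries, 1.68, 1.66 and 2.35 in the GDC libraries, 3.07, 3.24 and 2.88 in the GSK libraries and 3.08, 3.55 and 3.64 in the COMBO libraries. It rose by 0.57 with GSK126 alone (adjusted p = 0.00986), a call that was lost without GSK B (0.48, adjusted p = 0.0635) and with DESeq2 (0.53, adjusted p = 0.0749), and by 0.73 with both agents (adjusted p = 0.000533).

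**Figure D3:**
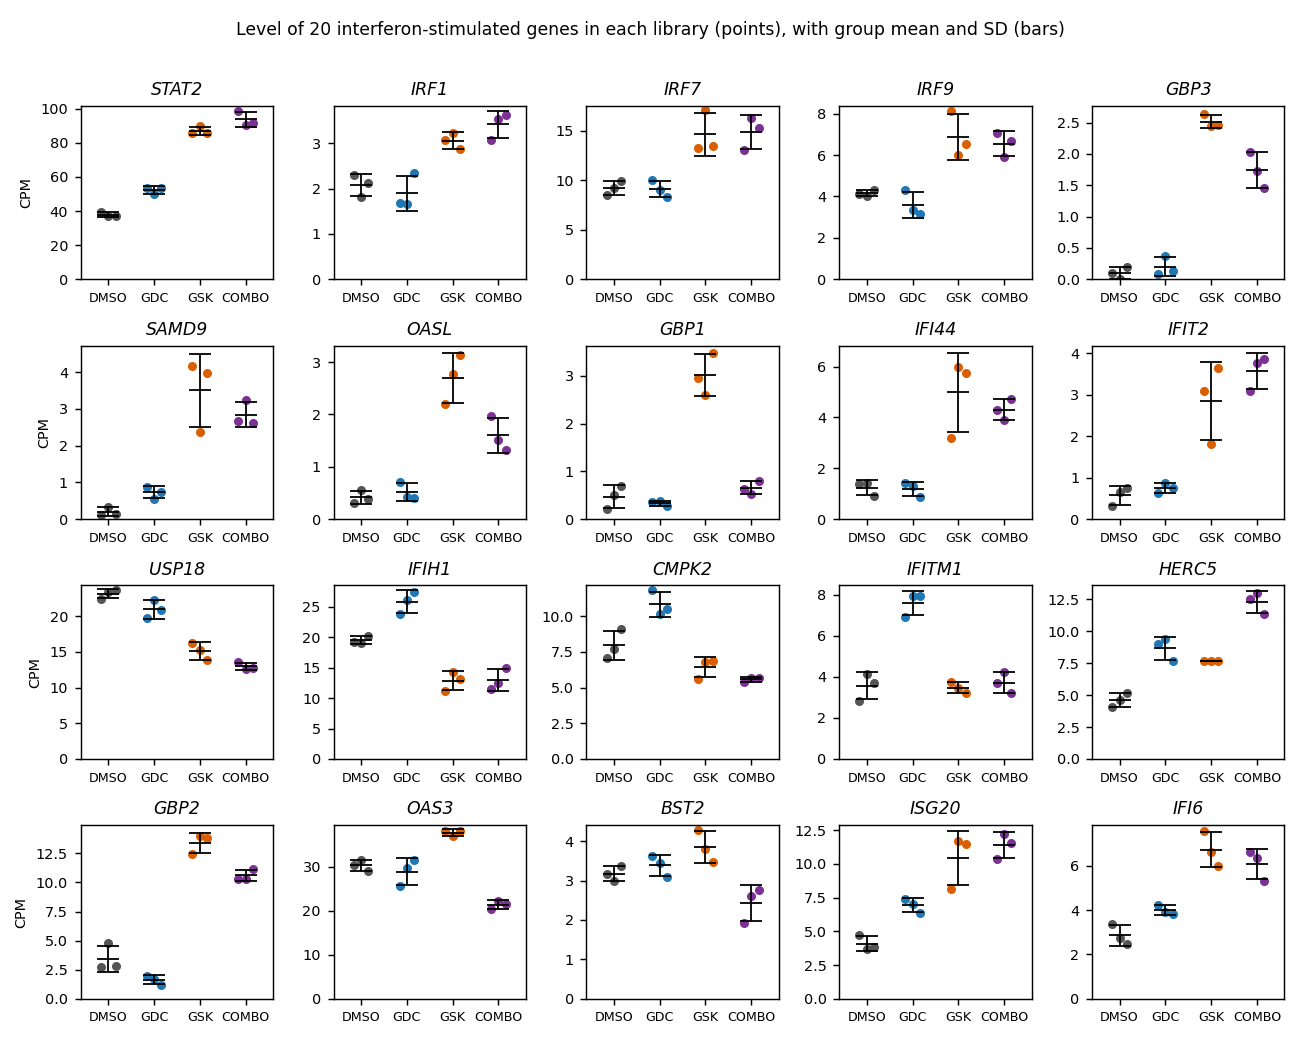
Level in CPM of 20 members in each of the 12 libraries (points), with the mean and SD of each group of 3 as bars. GSK and COMBO stand above DMSO for STAT2, GBP3, SAMD9 and OASL, both stand below it for USP18 and IFIH1, and IFITM1 stands apart in GDC.

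The sensors of viral RNA did not move as a unit. DDX58, which encodes RIG-I, rose from 5.64 to 6.00 CPM in DMSO to 12.6 to 15.3 in GSK (log2 fold change 1.27, adjusted p = 1.09e-09) and 16.2 to 17.3 in COMBO (1.53, adjusted p = 1.02e-11). DDX60, a helicase linked to RIG-I signalling, rose in all 3 treated groups, by 0.67 in GDC, 1.55 in GSK and 2.11 in COMBO. IFIH1 (chromosome 2, 162267074 to 162318684), which encodes the long-RNA sensor MDA5, went the other way. Its level was 19.2, 19.1 and 20.2 CPM in the DMSO libraries, 23.8, 26.2 and 27.5 in the GDC libraries, 11.2, 14.3 and 13.1 in the GSK libraries and 11.5, 12.4 and 15.0 in the COMBO libraries, so that GDC was above DMSO and both GSK and COMBO were below it. The log2 fold changes were 0.40 with GDC-0941 alone (SE 0.0904, adjusted p = 0.00153), -0.60 with GSK126 alone (SE 0.104, adjusted p = 3.22e-05) and -0.61 with both agents (SE 0.0961, adjusted p = 7.14e-06). DHX58, a regulator of both sensors that lacks signalling domains, did not pass the test in any group (-0.15, -0.37 and -0.45 in GDC, GSK and COMBO).

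The IFIT genes encode proteins that bind foreign RNA and block its translation. IFIT1, IFIT2 and IFIT3 rose in GSK, and IFIT5 did not pass the test. IFIT2 was at 0.316, 0.663 and 0.745 CPM in the DMSO libraries, 0.618, 0.862 and 0.737 in the GDC libraries, 3.07, 1.82 and 3.64 in the GSK libraries and 3.08, 3.77 and 3.86 in the COMBO libraries, and GSK and COMBO lay above both other groups. Its log2 fold change was 2.09 with GSK126 alone (SE 0.29, adjusted p = 1.95e-06) and 2.43 with both agents (SE 0.257, adjusted p = 2.98e-08). IFIT3 rose by 1.92 and 1.98. In DMSO IFIT2 held 46 counts and IFIT3 35. Both entered the test through their levels in GSK and COMBO, so these calls come in part with the filter. IFIT1 rose by 1.31 with GSK126 alone (adjusted p = 0.000287) and was at 0.50 with both agents (adjusted p = 0.109), where its level of 1.10 ± 0.230 CPM stood between 0.716 ± 0.256 in DMSO and 1.96 ± 0.209 in GSK (SD, n = 3). IFIT5 was at 7.85 ± 0.973 CPM in DMSO and 7.53 ± 0.612 in GSK. IFIT1, IFIT2 and IFIT3 overlap the annotated extent of LIPA and IFIT1 has 1 named pseudogene, so their counts are uncertain.

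The OAS enzymes are activated by double-stranded RNA and make short chains of adenylate. OASL, a relative without that activity that enhances RIG-I signalling, was at 0.316, 0.553 and 0.385 CPM in the DMSO libraries, 0.707, 0.431 and 0.402 in the GDC libraries, 2.20, 2.76 and 3.13 in the GSK libraries and 1.97, 1.51 and 1.31 in the COMBO libraries. GSK was above COMBO, and both were above DMSO and GDC. The log2 fold change was 2.68 with GSK126 alone (SE 0.287, adjusted p = 5.25e-08) and 1.91 with both agents (SE 0.294, adjusted p = 5.33e-06). OASL held 29 counts in DMSO and entered the test through its levels in GSK and COMBO, so these calls come in part with the filter. OAS1 rose by 1.40 and 1.25. OAS3 (chromosome 12, 112938051 to 112976460) split the 2 groups. It was at 30.4, 31.7 and 29.1 CPM in the DMSO libraries, 25.6, 29.7 and 31.5 in the GDC libraries, 38.2, 37.0 and 38.3 in the GSK libraries and 20.4, 22.3 and 21.6 in the COMBO libraries, so that GSK lay above every other library and COMBO below every other. It rose by 0.32 with GSK126 alone (SE 0.0717, adjusted p = 0.000468) and fell by 0.50 on the log2 scale in COMBO (SE 0.0724, adjusted p = 2.73e-06).

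Guanylate-binding proteins are GTPases that attack the membranes of intracellular pathogens, and GBP1, GBP2 and GBP3 all rose in GSK. GBP3 (chromosome 1, 89006679 to 89022894) was at 0.105, 0 and 0.192 CPM in the DMSO libraries, 0.0883, 0.369 and 0.134 in the GDC libraries, 2.64, 2.45 and 2.46 in the GSK libraries and 2.03, 1.73 and 1.46 in the COMBO libraries. GSK lay above COMBO, and COMBO above the rest. With 9 counts in DMSO in all, the fitted fold depends on the added prior count, so pooled counts were compared. GSK exceeded DMSO 19.2-fold (exact 95% counting interval 9.66 to 43.5) and COMBO 13.5-fold (6.82 to 30.4). DMSO C held 8 of those 9 counts, and without it the folds were 69.1 (12.1 to 2760) and 48.5 (8.49 to 1935).

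GBP1 was at 0.210, 0.497 and 0.697 CPM in the DMSO libraries, 0.353, 0.369 and 0.268 in the GDC libraries, 2.97, 2.61 and 3.47 in the GSK libraries and 0.638, 0.532 and 0.801 in the COMBO libraries. Its rise was seen in GSK (2.40, SE 0.272, adjusted p = 1.22e-07), and COMBO overlapped DMSO (0.17, adjusted p = 0.711). GBP2 was at 2.73, 4.75 and 2.79 CPM in the DMSO libraries, 1.94, 1.72 and 1.21 in the GDC libraries, 12.4, 14.0 and 13.8 in the GSK libraries and 10.3, 10.3 and 11.1 in the COMBO libraries. GDC lay below DMSO and both groups with GSK126 above it. It fell by 1.07 on the log2 scale in GDC (SE 0.232, adjusted p = 0.00109), the one fall among the members there, and rose by 1.99 with GSK126 alone (SE 0.162, adjusted p = 8.59e-10) and 1.65 with both agents (SE 0.159, adjusted p = 7.14e-09). GBP1 has 1 named pseudogene and GBP2 overlaps GBP7, so their counts are uncertain.

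ISG20, an exonuclease that degrades single-stranded RNA, was at 4.73, 3.70 and 3.80 CPM in the DMSO libraries, 7.42, 7.02 and 6.37 in the GDC libraries, 8.13, 11.7 and 11.4 in the GSK libraries and 10.3, 12.2 and 11.6 in the COMBO libraries. Each treated group lay above DMSO, and the log2 fold changes were 0.81 with GDC-0941 alone (adjusted p = 0.000256), 1.42 with GSK126 alone (adjusted p = 2.57e-08) and 1.53 with both agents (adjusted p = 1.78e-09). RSAD2, which encodes viperin, rose by 1.91 in GSK and 2.47 in COMBO. It held 19 counts in DMSO, 14 of them in DMSO C. By pooled counts GSK exceeded DMSO 3.80-fold (exact 95% counting interval 2.11 to 7.03) and COMBO 5.58-fold (3.36 to 9.73). Without DMSO C the folds were 5.76 (2.25 to 18.8) and 8.46 (3.48 to 26.7). The neighbor of RSAD2, CMPK2, which encodes a mitochondrial nucleotide kinase, was at 7.05, 7.74 and 9.09 CPM in the DMSO libraries, 11.8, 10.2 and 10.5 in the GDC libraries, 5.60, 6.79 and 6.86 in the GSK libraries and 5.40, 5.68 and 5.68 in the COMBO libraries. CMPK2 was above DMSO in GDC (0.39, adjusted p = 0.00921) and below it in GSK (-0.34, adjusted p = 0.0197) and COMBO (-0.56, adjusted p = 0.000256). The rise in GDC was lost without DMSO A (0.29, adjusted p = 0.0538), DMSO B (0.31, adjusted p = 0.0611) or GDC A (0.29, adjusted p = 0.0818). The fall in GSK was lost without DMSO C (-0.23, adjusted p = 0.165) or GSK A (-0.31, adjusted p = 0.053) and with library totals (-0.19, adjusted p = 0.184). RSAD2 (6865557 to 6898239 on chromosome 2) and CMPK2 (6840570 to 6866635) overlap at their ends, and reads from that stretch cannot be told apart where strand was not used in counting. MX1, a dynamin-like GTPase that traps viral particles and that overlaps TMPRSS2, was at 2.33 ± 0.230 CPM in DMSO and 2.33 ± 0.708 in GSK (SD, n = 3) and passed the test in no group.

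ISG15 is a ubiquitin-like protein that HERC5 attaches to targets and USP18 removes. HERC5 was at 4.10, 4.64 and 5.17 CPM in the DMSO libraries, 9.01, 9.36 and 7.64 in the GDC libraries, 7.69, 7.66 and 7.71 in the GSK libraries and 12.5, 13.0 and 11.4 in the COMBO libraries. All treated libraries exceeded DMSO, GDC overlapped GSK, and COMBO was above both. Its log2 fold changes were 0.85 with GDC-0941 alone (SE 0.12, adjusted p = 1.56e-05), 0.68 with GSK126 alone (SE 0.128, adjusted p = 8.17e-05) and 1.36 with both agents (SE 0.111, adjusted p = 5.34e-10). HERC6, a related ligase gene next to it, rose by 0.40, 0.68 and 0.88.

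USP18 (chromosome 22, 18150118 to 18177397), which also restrains signalling at the interferon receptor, was at 22.4, 23.3 and 23.6 CPM in the DMSO libraries, 19.7, 22.3 and 20.8 in the GDC libraries, 16.3, 15.2 and 13.8 in the GSK libraries and 13.6, 12.6 and 12.7 in the COMBO libraries. The levels stepped down from DMSO to GDC, GSK and COMBO without overlap, and the fall passed the test in GSK (-0.63, SE 0.0815, adjusted p = 8.17e-07) and COMBO (-0.84, SE 0.0772, adjusted p = 3.43e-09), not in GDC (-0.14, adjusted p = 0.134). ISG15 itself averaged 13.9 ± 1.85 CPM with vehicle, 14.2 ± 1.72 with GDC-0941, 17.2 ± 0.775 with GSK126 and 12.2 ± 1.16 with both (SD, n = 3). Its rise of 0.29 with GSK126 alone (adjusted p = 0.0179) did not hold under DESeq2 (0.26, adjusted p = 0.0715), with no filter (0.20, adjusted p = 0.0864) and without DMSO A, DMSO C, GSK A or GSK B (0.19, 0.26, 0.23 and 0.23, with adjusted p = 0.121, 0.0817, 0.0902 and 0.108).

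The IFITM proteins and BST2 (tetherin) block the entry and the release of enveloped viruses at membranes. IFITM1 (chromosome 11, 310041 to 315272) was at 2.84, 4.14 and 3.68 CPM in the DMSO libraries, 6.89, 7.94 and 7.91 in the GDC libraries, 3.73, 3.48 and 3.22 in the GSK libraries and 3.71, 4.21 and 3.20 in the COMBO libraries. GDC stood above every other library, and the remaining groups overlapped. It rose by 1.06 with GDC-0941 alone (SE 0.14, adjusted p = 7.68e-06), compared with -0.08 with GSK126 alone (adjusted p = 0.667) and 0.04 with both agents (adjusted p = 0.811). IFITM2 rose by 0.39, 0.86 and 0.97 in GDC, GSK and COMBO, although the GDC value was 0.23 (adjusted p = 0.107) without DMSO C. IFITM3 rose by 0.37, 0.80 and 0.65. IFITM3 has 9 named pseudogenes and the IFITM genes resemble each other closely, so reads could be shared among them.

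BST2 was at 3.16, 2.98 and 3.37 CPM in the DMSO libraries, 3.62, 3.45 and 3.08 in the GDC libraries, 4.28, 3.79 and 3.47 in the GSK libraries and 1.91, 2.62 and 2.77 in the COMBO libraries. COMBO was below the other libraries, a fall of 0.40 on the log2 scale against DMSO (adjusted p = 0.0309), and GSK lay just above DMSO (0.25, adjusted p = 0.179). The fall in COMBO was lost without DMSO C (-0.33, adjusted p = 0.157) or COMBO A (-0.27, adjusted p = 0.152), under DESeq2 (-0.44, adjusted p = 0.0967) or library totals (-0.20, adjusted p = 0.275).

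SAMD9 (chromosome 7, 93099513 to 93118023), a restriction factor for poxviruses, was at 0.105, 0.332 and 0.144 CPM in the DMSO libraries, 0.883, 0.554 and 0.737 in the GDC libraries, 4.17, 2.37 and 3.98 in the GSK libraries and 2.67, 3.24 and 2.62 in the COMBO libraries. DMSO was lowest, GDC intermediate, and GSK and COMBO overlapped at the top. The log2 fold changes were 1.86 with GDC-0941 alone (SE 0.476, adjusted p = 0.00393), 4.14 with GSK126 alone (SE 0.349, adjusted p = 1.54e-09) and 3.88 with both agents (SE 0.339, adjusted p = 1.64e-09). DMSO held 13 counts in all, and by pooled counts GDC exceeded it 3.76-fold (exact 95% counting interval 1.90 to 7.85), GSK 18.2-fold (10.2 to 35.3) and COMBO 15.4-fold (8.75 to 29.6). Without DMSO C the GDC value was 1.42 (adjusted p = 0.0665). Its neighbor SAMD9L had 0 counts in DMSO and GDC, 9 in GSK and 21 in COMBO, which is at least 6.18-fold and 9.05-fold higher than a floor of 3 counts over the DMSO group. Without DMSO C these bounds were 2.47 and 3.61.

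PARP14, an ADP-ribosyltransferase, rose by 0.43, 0.88 and 1.52 in GDC, GSK and COMBO, from 24.8 ± 2.30 CPM in DMSO to 70.0 ± 2.44 in COMBO (SD, n = 3). PARP9, which overlaps DTX3L, rose by 0.59 in GSK and 0.48 in COMBO. TRIM21, an antibody receptor of the cytosol, and TRIM22, a restriction factor that overlaps TRIM5 and OR56B1, rose in GSK by 0.77 and 1.5 and in COMBO by 0.54 and 1.61. TRIM22 held 25 counts in DMSO. By pooled counts GSK exceeded DMSO 2.89-fold for TRIM22 (exact 95% counting interval 1.68 to 5.03) and COMBO did 3.10-fold (1.92 to 5.16).

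Among the remaining members, IFI6, a mitochondrial and endoplasmic reticulum protein that protects against flaviviruses, was at 3.37, 2.76 and 2.45 CPM in the DMSO libraries, 4.24, 3.94 and 3.82 in the GDC libraries, 7.58, 6.64 and 6.01 in the GSK libraries and 6.61, 6.34 and 5.31 in the COMBO libraries. DMSO lay below GDC, and GDC below GSK and COMBO. It rose by 0.56 with GDC-0941 alone (SE 0.163, adjusted p = 0.0101), 1.30 with GSK126 alone (SE 0.155, adjusted p = 2.33e-07) and 1.18 with both agents (SE 0.146, adjusted p = 2.91e-07). The GDC call was lost without DMSO C (0.38, adjusted p = 0.146) and with DESeq2 (0.50, adjusted p = 0.0535). IFI44 was at 1.37, 1.44 and 0.914 CPM in the DMSO libraries, 1.41, 1.29 and 0.871 in the GDC libraries, 3.18, 6.00 and 5.76 in the GSK libraries and 4.29, 3.90 and 4.73 in the COMBO libraries. DMSO and GDC overlapped, and both groups with GSK126 lay above them, by 2.16 with GSK126 alone (SE 0.244, adjusted p = 1.13e-07) and 1.90 with both agents (SE 0.235, adjusted p = 2.83e-07).

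LGALS3BP, a secreted glycoprotein, rose by 0.48, 1.5 and 1.61 in GDC, GSK and COMBO, but the GDC value was 0.30 without DMSO C (adjusted p = 0.150), 0.41 without GDC B (adjusted p = 0.0509) and 0.34 without GDC C (adjusted p = 0.0908). PLSCR1, a scramblase that potentiates the interferon response, rose by 0.84 in GSK. Its rise of 0.52 with both agents (adjusted p = 0.0347) did not hold in 7 of 19 alternatives. These included leaving out DMSO A (0.48), DMSO C (0.43), COMBO B (0.55) and COMBO C (0.39), with adjusted p = 0.0695, 0.169, 0.0538 and 0.149. XAF1, a proapoptotic antagonist of XIAP, had 5 counts in DMSO and 25 in GSK, a ratio of 10.3 (exact 95% counting interval 3.87 to 34.5), and 50 in COMBO, a ratio of 12.9 (5.19 to 41.5). All 5 DMSO counts were in DMSO C, and without it GSK was at least 6.85-fold and COMBO at least 8.59-fold higher than a floor of 3 counts over the remaining DMSO libraries.

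OAS2, MX2, SAMD9L, IFI27, IFI44L and EPSTI1 held too few counts to be tested. Ratios of pooled counts in GSK to DMSO were 4.81 for OAS2 (exact 95% counting interval 1.74 to 15.3), 3.78 for MX2 (1.28 to 12.4), 3.89 for IFI27 (1.64 to 9.91), 2.83 for IFI44L (1.04 to 8.12) and 1.03 for EPSTI1 (0.317 to 2.97). The interval excluded 1 for all but EPSTI1 among these 5, but included 1 for MX2 without DMSO C (0.987 to 42.0) and for IFI44L without DMSO B (0.847 to 7.28) or DMSO C (0.796 to 16.8). These intervals cover counting error only, not the spread between libraries. For MX2 the GSK libraries held 1, 5 and 5 counts. In COMBO the ratios were 5.60 for OAS2 (2.25 to 16.6), 2.80 for MX2 (0.993 to 8.99), 2.59 for IFI27 (1.10 to 6.53), 2.26 for IFI44L (0.886 to 6.22) and 0.646 for EPSTI1 (0.199 to 1.86). There the interval excluded 1 for OAS2 and IFI27, and for IFI27 it included 1 without DMSO B (0.978 to 6.95) or DMSO C (0.764 to 9.43). In GDC it included 1 for each of the 5.

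Across the treated groups, 11 of the 40 tested members rose in GDC, GSK and COMBO alike (DDX60, HERC5, HERC6, IFI6, IFITM2, IFITM3, ISG20, LGALS3BP, PARP14, SAMD9 and STAT2), as did 14.8% of all tested genes. Another 16 rose in GSK and COMBO and did not pass the test in GDC (20.6% of all genes). CMPK2, IFIH1 and GBP2 were called in opposite directions in GDC and GSK. CMPK2 and IFIH1 rose in GDC and fell in GSK and COMBO (1.05% of all genes), and GBP2 did the reverse (0.529%). DHX58, IFIT5 and MX1 passed the test in none of the 3, which was also true of 9.90% of all tested genes. That a call was made in one group and not in another is no test of a difference between the groups, which the next comparisons give.

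To ask whether GSK126 acted on the members alike with and without the PI3K inhibitor, COMBO was compared with GDC, and the difference between this effect and that of GSK126 alone was tested as an interaction. COMBO and GDC share no library with GSK and DMSO. In COMBO against GDC 28 members rose and 6 fell (76.0% of all genes changed, 37.9% upward and 38.0% downward), with a median of 0.78 beside 0.018 for all genes. All 28 had also risen in GSK against DMSO, as had OAS3, which fell here, and GBP1, ISG15 and PLSCR1, which did not pass the test. IFIH1, CMPK2 and USP18 fell in both comparisons. The share of all genes called in the same direction in both was not counted, so whether this overlap is particular to the members was not tested. IFITM1 (-1.01) and BST2 (-0.47) fell in COMBO against GDC and did not pass the test in GSK. The calls of IFIT1 (1.04) without COMBO B (0.86, adjusted p = 0.0563), of TRIM22 (0.87) without GDC C (0.66, adjusted p = 0.108) or COMBO C (0.72, adjusted p = 0.0857) and of BST2 without GDC A (-0.40, adjusted p = 0.0777), GDC B (-0.42, adjusted p = 0.0748) or COMBO A (-0.30, adjusted p = 0.141) were lost. With DESeq2 those of TRIM22 (0.89, adjusted p = 0.1035) and BST2 (-0.47, adjusted p = 0.0855) were also lost, as was BST2 with library totals (-0.30, adjusted p = 0.124).

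**Figure D4:**
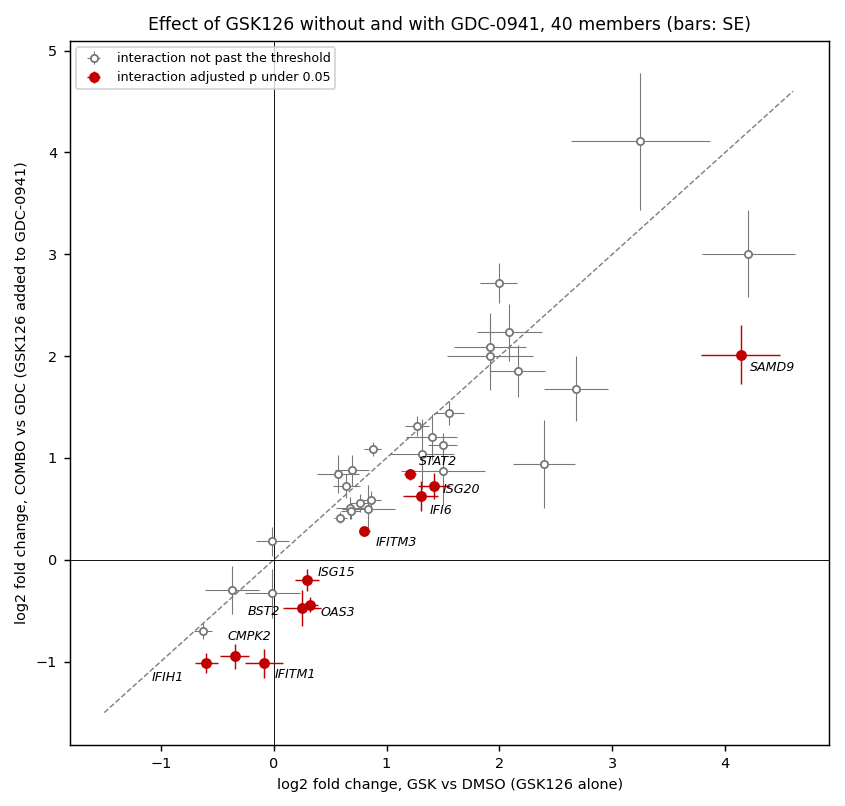
Log2 fold change of the 40 tested members for GSK126 alone (GSK against DMSO, horizontal) and added to GDC-0941 (COMBO against GDC, vertical), with SE bars and a dashed line of equal change. The 11 filled points, all below the line, have an interaction with adjusted p under 0.05.

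The interaction was below the sum of the single-agent changes for 11 members and above it for 0 (21.4% of all genes were called, 16.5% below and 4.86% above), with a median of -0.28 over the members and -0.063 over all genes. The balance over all genes depended on the processing, with 690 above and 2344 below in this fit, 1638 and 1319 with no filter, and 840 and 1674 with DESeq2. SAMD9 had the lowest value, -2.12 (SE 0.525, adjusted p = 0.0065), since GSK126 raised it by 4.14 alone and by 2.01 on top of GDC-0941. This call was lost without DMSO C (-1.66, adjusted p = 0.0808). SAMD9 held 13 counts in DMSO and entered the test through its levels in GSK and COMBO, so the size of its interaction is uncertain. For IFITM1 the value was -0.93 (SE 0.224, adjusted p = 0.00521): GSK126 alone gave -0.08, and in cells with GDC-0941 the level was 7.58 ± 0.598 CPM without and 3.71 ± 0.505 with GSK126 (SD, n = 3). For OAS3 it was -0.76 (SE 0.104, adjusted p = 2.52e-05), with a rise of 0.32 for GSK126 alone and a fall of 0.44 on the log2 scale when added. IFITM3 (-0.53, adjusted p = 1.46e-05) and STAT2 (-0.37, adjusted p = 0.00172) rose in both settings, by 0.80 and 0.28 for IFITM3 and by 1.21 and 0.84 for STAT2.

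The interactions of OAS3, IFITM1, IFITM3 and STAT2 kept their call in 18 of 18 alternatives. The ISG20 call was lost without DMSO B, DMSO C, GDC A, GDC B, GSK B or COMBO A (-0.61 to -0.54). SAMD9 was lost in the fit named above and had no adjusted p with DESeq2. The calls of BST2, IFI6, CMPK2, ISG15 and IFIH1 were lost in 10 to 16 of 18 alternatives, among them fits without most single libraries, with values of -0.74 to -0.51 for BST2, -0.65 to -0.48 for IFI6, -0.57 to -0.48 for CMPK2, -0.47 to -0.33 for ISG15 and -0.43 to -0.26 for IFIH1 where the call was lost. With 1 library left out, 5 to 9 members stood below the sum, against 11 with all libraries. GBP1 (-1.46, SE 0.556, adjusted p = 0.0675) and GBP2 (0.72, SE 0.274, adjusted p = 0.0674) did not pass the test. GBP1 passed it without DMSO C (adjusted p = 0.0468), and GBP2 passed it, above the sum, in 5 of 18 alternatives, which were DESeq2, no filter, a mean of 1 CPM or more, and leaving out DMSO A or DMSO C (adjusted p down to 0.00825).

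What GDC-0941 added to GSK126 was given by COMBO against GSK, in which 4 members rose and 9 fell (45.9% of all genes changed, 19.0% upward and 26.9% downward). The median was -0.069 over the members and -0.014 over all genes. HERC5 (0.68, adjusted p = 6.02e-05), PARP14 (0.65, adjusted p = 3.93e-07), DDX60 (0.56, adjusted p = 0.00034) and DDX58 (0.25, adjusted p = 0.0317) rose. GBP1 fell by 2.23 on the log2 scale (SE 0.278, adjusted p = 1.91e-06), from 3.01 ± 0.435 CPM in GSK to 0.657 ± 0.135 in COMBO (SD, n = 3), OAS3 by 0.82 (adjusted p = 3.01e-08), BST2 by 0.65 (adjusted p = 0.00552) and ISG15 by 0.49 (adjusted p = 0.00109). The calls of DDX58, IFIT1, OASL, GBP2, IFITM3 and TRIM21 here were each lost in at least 1 alternative. Among these, DDX58 was lost without GSK A (0.21, adjusted p = 0.101), COMBO B (0.26, adjusted p = 0.0509) or COMBO C (0.24, adjusted p = 0.0733), IFIT1 (-0.81, adjusted p = 0.0195) without GSK C (-0.72, adjusted p = 0.0828) or COMBO A (-0.64, adjusted p = 0.0909), and OASL (-0.76, adjusted p = 0.0111) without GSK C (-0.65, adjusted p = 0.0659). IFITM3 (-0.16) was lost without GSK A, GSK B or COMBO B (-0.13 to -0.12), TRIM21 (-0.22) without any library other than COMBO C (-0.24 to -0.13), and GBP2 (-0.35) without any library other than DMSO B (-0.38 to -0.29). With DESeq2 the calls of DDX58 (0.25, adjusted p = 0.103), IFIT1 (-0.83, adjusted p = 0.087), OASL (-0.76, adjusted p = 0.072), GBP2 and TRIM21 were also lost.

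Promoters with and without the ISRE core were then set beside these calls. In GSK, 17 of 22 tested members with the core rose and 1 fell, with a median of 0.86, and 9 of 10 without it rose and 1 fell, with a median of 0.95 (40.0% of all genes rose and 35.8% fell). The search fixed the spacing of the GAAA boxes at 2 bases. Among the windows without a match, those of DDX58, OAS1, RSAD2 and XAF1 hold GAAACGAAA, with the boxes 1 base apart, and these members rose in GSK. A window without the core as searched can thus hold a similar element. The RSAD2 window (6865635 to 6865934) lies inside the annotated extent of CMPK2, a member that fell in GSK. To which of these genes its letters belong was not tested. In GDC 10 of 22 with the core and 3 of 10 without it rose (20.0% of all genes), and in COMBO 13 of 22 and 9 of 10 (43.3% of all genes). Of the members whose interaction lay below the sum, 9 were among the 22 with the core and 2 among the 10 without it (16.5% of all genes lay below). Of these 11 calls, 4 were kept in every alternative. These counts were not tested against each other.

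Genes of the pathway that are not members were read in the same fit. Interferons themselves were at the limit of detection: IFNA1, IFNA2, IFNB1, IFNE, IFNK and IFNG had 0 counts in all 12 libraries, and the lambda genes IL29, IL28A and IL28B had group means of at most 0.083 CPM. Of 15 genes for receptors, kinases and signalling 12 were tested, and 7 rose and 2 fell in GSK, where 40.0% of all genes rose and 35.8% fell. The receptor chain IFNAR1 fell by 0.52 on the log2 scale in GSK, and JAK1 rose by 1.40 in GSK and 2.14 in COMBO. SOCS3, a feedback inhibitor of JAK kinases, was at 0.0849 ± 0.0755 CPM in DMSO and 1.09 ± 0.306 in GSK. Its DMSO mean lay within the limit of 3 counts, 0.0675 to 0.294 CPM in the DMSO libraries, so the size of its change is uncertain.

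Of 15 genes of nucleic acid sensing 12 were tested, and 7 rose and 3 fell in GSK, beside the same shares of all genes. IFI16, a DNA sensor, went from 0.0264 ± 0.0277 CPM in DMSO to 0.804 ± 0.114 with GSK126 and 1.32 ± 0.519 with both (SD, n = 3), and TMEM173, which encodes STING, from 0.979 ± 0.0822 to 4.18 ± 0.717 and 3.43 ± 1.15. The DMSO mean of IFI16 lay below the limit of 3 counts in each DMSO library (0.0675 to 0.294 CPM), so the size of its change is uncertain. TMEM173 rose by 2.15 with GSK126 alone (adjusted p = 5e-07). TRAF3 fell by 0.73 and TBK1 by 0.45 on the log2 scale, both of which act downstream of the sensors. Of 28 further interferon-induced genes 20 were tested, of which 15 rose and 2 fell in GSK (40.0% and 35.8% of all genes) and 7 rose in GDC (20.0%). UBA7, the activating enzyme for ISG15, rose by 1.69 in GDC, 3.27 in GSK and 3.48 in COMBO, and TNFSF10, which encodes the death ligand TRAIL, by 3.20 in GSK and 2.36 in COMBO. The chemokine genes CXCL9, CXCL10, CXCL11 and CCL5 had group means of at most 0.122 CPM.

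**Figure D5:**
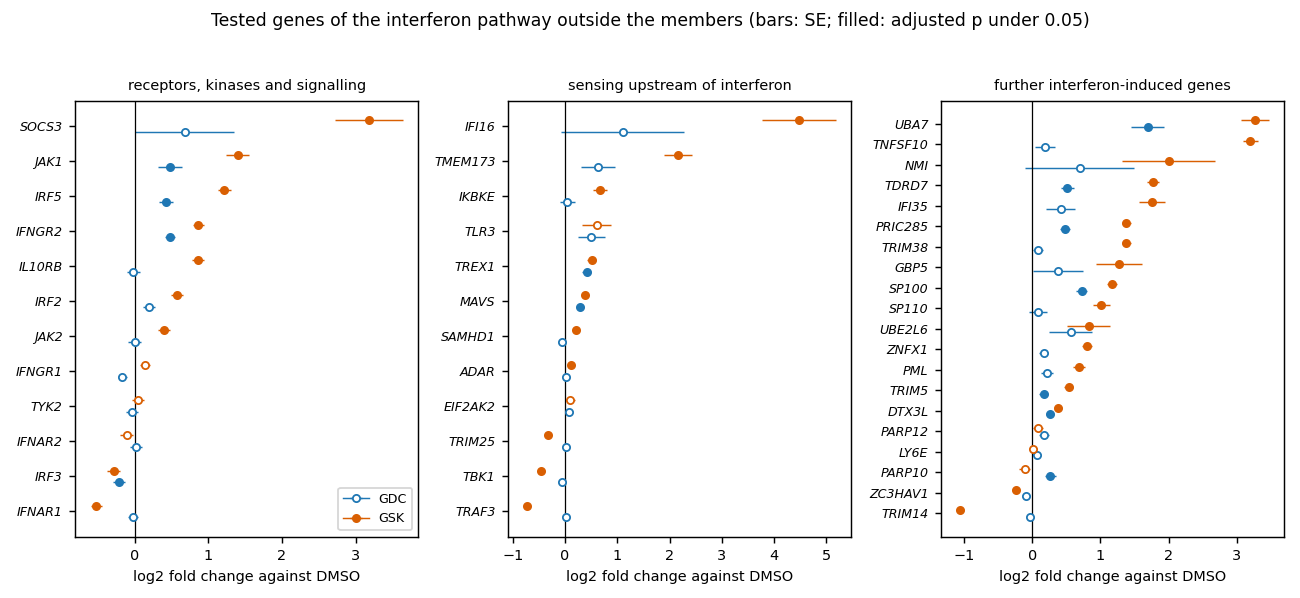
Log2 fold change against DMSO of the tested genes of the interferon pathway that are not members, in GDC and in GSK, with SE bars and filled points where the adjusted p was under 0.05. In GSK 7 of 12, 7 of 12 and 15 of 20 genes rose in the 3 panels, and in GDC 3, 2 and 7 rose.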

How the data were processed

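RNA of 12 libraries was sequenced. Per the labels, the authors aligned reads to hg38 with STAR and counted them per gene symbol with HTSeq. The deposited files give these as raw counts. Versions, annotation and strand setting are not given in the sources used here. A deposited table of normalized signal, which the authors obtained by dividing counts by DESeq2 size factors, served only to check those factors. Summary lines of reads outside genes were left out.

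Counts were tested by edgeR 4.0.16 under R 4.3.3, using its quasi-likelihood test (TMM, filterByExpr, all 12 libraries in 1 fit with 1 coefficient per group), two-sided, with Benjamini-Hochberg adjustment over 14189 genes and a threshold of 0.05. The common biological coefficient of variation was 0.0499. The interaction is COMBO minus GDC minus GSK plus DMSO on the log2 scale. The code was tested on simulated data.

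The members and lists were chosen with earlier results of these data known. Some genes of the pathway and marker lists are not reported here, and the counts and sums given leave them out. Values in every library are printed for the 4 transcription factors and, among called members of the 37 with a mean of at least 1 CPM, for the largest changes in GSK, GDC and the interaction and those with opposite calls in GDC and GSK, 20 members in all. Other members are given by ranges, means or fold changes. Where DMSO held few counts, pooled counts were compared with an exact 95% interval, which covers counting error only. Coordinates and exon lengths are from GENCODE on hg38, and promoters from RefSeq on GRCh38.p14. Alternatives were leaving out each library, blocking on the replicate letter, fitting the compared groups only, DESeq2 1.42.0 or its size factors, scaling by library totals, dropping the filter or requiring 1 CPM on average, and requiring a change of 1 or more on the log2 scale in either direction. Pooled ratios were also taken without each DMSO library, an alternative chosen after seeing the data.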

Additional observations from a re-analysis of the deposited data

Results flagged for a closer look

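The effect of GSK126 on 11 of 40 tested members (21.4% of all genes, 16.5% below the sum) differed between cells without and with GDC-0941, by the interaction term of the edgeR fit across all genes (adjusted p under 0.05). The differences, COMBO against GDC minus GSK against DMSO on the log2 scale, were -2.12 for SAMD9, -0.93 for IFITM1, -0.76 for OAS3, -0.72 for BST2, -0.70 for ISG20, -0.68 for IFI6, -0.60 for CMPK2, -0.53 for IFITM3, -0.49 for ISG15, -0.42 for IFIH1 and -0.37 for STAT2. BST2 (adjusted p = 0.0385), IFIH1 (adjusted p = 0.0438) and ISG15 (adjusted p = 0.0266) were near the threshold, and their calls were lost in 15, 16 and 12 of 18 alternatives. Those of IFI6, CMPK2, ISG20 and SAMD9 were lost in 11, 10, 6 and 1, and SAMD9 had no adjusted p with DESeq2. SAMD9 held 13 counts in DMSO, so the size of its difference is uncertain. All 11 members kept the negative sign in each alternative. The groups hold 3 libraries each, so no library was examined as standing apart within a group.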

How the results depend on the processing

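No direction of a called member reversed past the threshold in any alternative. Requiring a change of 1 or more on the log2 scale left 3 changed members (2 higher) in GDC, 19 (19 higher, 0 lower) in GSK, 19 (0 lower) in COMBO, 17 (15 higher, 2 lower) in COMBO against GDC, 1 (0 higher, 1 lower) in COMBO against GSK and 1 (1 lower) in the interaction. Of all genes 1.87%, 21.9%, 31.1%, 21.8%, 2.97% and 1.33% passed this in the same comparisons. With DESeq2, COMBO against GSK had 8 changed members (5 lower), and the interaction 6 (1 higher, 5 lower) among 25 with an adjusted p. The interaction had 2 higher and 6 lower with no filter, and 1 higher with a mean of at least 1 CPM.

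With 1 library left out, changed members numbered 11 to 15 in GDC (10 to 14 higher, 1 to 2 lower), 33 to 36 in GSK (31 to 33 higher, 2 to 4 lower), 31 to 35 in COMBO (27 to 29 higher, 4 to 7 lower), 33 to 35 in COMBO against GDC (27 to 29 higher, 5 to 6 lower), 10 to 14 in COMBO against GSK (3 to 6 higher, 6 to 8 lower) and 5 to 10 in the interaction (0 to 1 higher, 5 to 9 lower). Calls kept in every alternative other than the fold threshold were 10 of 15 in GDC, 32 of 35 in GSK, 31 of 33 in COMBO, 31 of 34 in COMBO against GDC, 7 of 13 in COMBO against GSK and 4 of 11 in the interaction. The cause of these losses was not tested.

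Taken over all groups, the replicate letters showed no clear pairing of the libraries. Of 18 pairs with the same letter the deviations from the group means correlated at -0.0839 to 0.188, with 2 pairs over 0.1, and 8 of 12 libraries were closer to their own letter than to the others. Between GDC and COMBO, however, pairs with the same letter correlated at 0.116 (A), 0.188 (B) and 0.0727 (C). Their pairs with different letters were at -0.146 to 0.0453. Whether the letters mark paired libraries in these groups was not tested. With the replicate block, changed members numbered 15 in GDC, 35 in GSK, 33 in COMBO, 35 in COMBO against GDC, 12 in COMBO against GSK and 10 in the interaction.

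Depth limits the members with few counts: 16 of 46 were under 1 CPM in DMSO and 6 could not be tested.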
